A study of Mus musculus with 10 samples.

Results

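The 50 genes described here lie on the distal stretch of mouse chromosome 6, from Brpf1 (chr6:113307137-113324860, build GRCm38) to Caprin2 (chr6:148842492-148896237), a span of 35.6 Mb. They were chosen from a list of 53 gene symbols by a mean of at least 50 normalized counts over the 7 libraries. Of the 54456 genes in the deposited table, 11612 reached that mean. The list was drawn up after each library had been compared with the wild type, and after conv-dSVA_D and conv-dSVA_F had been compared with conv-dSVA_F&D. Levels in those comparisons are therefore descriptions and carry no p-value. Ccnd2 (mean 80.5) and Crebl2 (137) stood just inside the minimum. Atn1 (42.3), Itpr2 (23.4) and Mgst1 (5.16) stood below it and were left out.

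The samples were C57BL/6J mouse embryonic stem cells (mESC), grown on gelatin with serum, LIF and inhibitors of GSK3 (CHIR99021) and MEK (PD0325901). The study asked what SVA retrotransposon insertions do in X-linked dystonia parkinsonism, a disease linked to an SVA in TAF1. The line MK6 is labelled wild type and gave 1 library. There were 2 libraries each of the converted lines conv-dSVA_F, conv-dSVA_D and, with both deletions, conv-dSVA_F&D. All 3 converted lines share a Taf1 allele with a human-derived, mousified part, a loxP construct in Taf1 intron 24, the LPSwapinRed construct, and past exposure to pSpCas9, pSpCas9GFP and Cre from pCAGiCre. They differ in lacking SVA_F, SVA_D or both. Other samples of the series were not analysed here. With 1 line name per genotype and no clone given, effects of genotype cannot be told apart from those of the line. Nothing in the labels shows that the 2 libraries of a line were separate cultures, and p-values then reflect no more than the spread of these libraries, which could be technical. In bulk RNA, fewer cells of a type and less RNA per cell cannot be told apart.

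Genes that sit on 1 stretch of chromosome share its copy number, and the RNA of many genes follows the number of gene copies in proportion. Mouse embryonic stem cell lines can gain whole chromosomes or chromosome segments in culture, and chromosome 8 is known for it. Distal chromosome 6 carries the pluripotency gene Nanog, the glycolysis genes Gapdh and Tpi1, and, among the 50 genes, subunits of chromatin complexes, ribosome biogenesis factors and DNA repair proteins. DNA copy number was not measured in these samples. Its part in the results was not tested.

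Several of the genes lie back to back, with their starts close together on opposite strands, so that 1 short stretch of DNA precedes both. Emg1 and Phb2 start 158 bases apart, Ncapd2 and Mrpl51 100 bases apart, and Recql and Golt1b 134 bases apart. Tm7sf3 and Med21 overlap at their starts by 277 bases. Bases between the starts of the first 3 pairs are shown because they lie upstream of both genes of a pair, together with the 250 bases before Caprin2, the gene with the widest difference between conv-dSVA_D and conv-dSVA_F&D. Each stretch runs between the nearest GENCODE or RefSeq starts of the pair. For Emg1 and Phb2 it holds 110 bases and ends at the RefSeq start of Phb2 (base 124712289), upstream of its GENCODE start (base 124712336). Sequences are from RefSeq (GRCm38.p6), on the plus strand for the pairs and the minus strand for Caprin2. Capitals mark CCGGAAG or its reverse complement CTTCCGG, an extended form of the core recognised by ETS transcription factors, searched on both strands. Other forms of the core were not searched and are not marked.
Emg1/Phb2, chr6:124712179-124712288: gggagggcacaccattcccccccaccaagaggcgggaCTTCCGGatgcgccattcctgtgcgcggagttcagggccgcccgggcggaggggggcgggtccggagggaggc
Ncapd2/Mrpl51, chr6:125191702-125191800: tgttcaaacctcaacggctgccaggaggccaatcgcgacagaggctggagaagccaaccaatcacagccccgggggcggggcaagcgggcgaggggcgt
Recql/Golt1b, chr6:142387088-142387220: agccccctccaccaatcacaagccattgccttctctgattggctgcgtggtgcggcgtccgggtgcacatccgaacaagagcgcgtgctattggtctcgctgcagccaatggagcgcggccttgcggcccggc
Caprin2, chr6:148896238-148896487: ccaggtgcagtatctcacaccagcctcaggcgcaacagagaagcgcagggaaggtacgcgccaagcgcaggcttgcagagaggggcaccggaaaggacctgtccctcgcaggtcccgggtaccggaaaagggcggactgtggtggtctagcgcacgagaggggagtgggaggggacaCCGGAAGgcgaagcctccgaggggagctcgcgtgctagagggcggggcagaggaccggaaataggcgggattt
In the bases shown, the motif occurred once for Emg1 and Phb2, once before Caprin2, and not in the other 2 stretches. Of 39 of the 50 genes with a RefSeq promoter entry (250 bases before to 50 after the start), 11 (28.2%) held it in at least 1 entry. Over all 27025 genes with an entry the share counted the same way was 9.93%, and over all 32851 entries 8.86%. A match is a description of the letters and not of binding.

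Recovered reads assigned to genes ranged from 16588467 in conv-dSVA_F&D replicate 2 to 26562418 in conv-dSVA_D replicate 2. A gene at 0 could have had up to 3 reads, which is 2.45 to 4.18 normalized counts depending on the library, for counting error only. Taf1, the edited gene, had 2898 normalized counts in the wild type, 501 and 589 in conv-dSVA_F, 362 and 418 in conv-dSVA_D, with 1116 and 1088 in conv-dSVA_F&D. Summed stem cell markers (10 genes) lay between 142800 and 182500 normalized counts in the 7 libraries. Summed fibroblast markers (8 genes, Lum at 0 throughout) lay between 80.8 and 347, primitive endoderm markers (8 genes) between 107 and 380, and trophoblast markers (8 genes) between 903 and 1644. Summed markers of the 2-cell-like state (8 genes, Gm6763 at 0 throughout) were 1767 in the wild type, 739 and 443 in conv-dSVA_F, 62.4 and 60.4 in conv-dSVA_D, with 513 and 369 in conv-dSVA_F&D. That state was thus lowest in conv-dSVA_D, and its part in the results was not tested. On 16 other autosomes, leaving out chromosomes 6, 8 and 18, the median log2 ratio to the wild type lay between -0.03 and 0.01 in the 6 converted libraries. Counts had been divided by 1 size factor per library, and a median near 0 over most genes can follow from that scaling alone. Chromosomes 8 and 18 were left out of that set because they stood apart. The chromosome 8 median was 0.64 and 0.46 in conv-dSVA_F, 0.08 and 0.27 in conv-dSVA_D, and within 0.01 of 0 in conv-dSVA_F&D. The chromosome 18 median stood at 0.48 in replicate 2 of conv-dSVA_F&D, while the other 5 libraries lay from -0.09 to -0.02.

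Against the wild type, the 50 genes stood higher in both conv-dSVA_F and conv-dSVA_D, and close to the wild type in conv-dSVA_F&D. The median log2 ratio of the 50 reached 0.46 and 0.43 in the 2 conv-dSVA_F libraries and 0.58 and 0.49 in conv-dSVA_D. It was 0.06 and 0.13 in conv-dSVA_F&D. On this scale a 1.5-fold level is 0.58. The number of the 50 above the wild type was 45 and 46 in conv-dSVA_F, 47 and 49 in conv-dSVA_D, with 27 and 32 in conv-dSVA_F&D. Both libraries of the line lay above the wild-type library for 43 genes (86%) in conv-dSVA_F, 47 (94%) in conv-dSVA_D and 25 (50%) in conv-dSVA_F&D. Over all 15240 genes tested, this held for 40.1%, 40.3% and 35.7%. A mean log2 ratio to the wild type of at least 1.5-fold was reached by 14 genes in conv-dSVA_F, 23 in conv-dSVA_D and 5 in conv-dSVA_F&D. Among 141 other genes of the same stretch with a mean of at least 50, the counts were 42, 60 and 9. The share over all genes is not given here.

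The genes did not all sit at 1 level. The SD of the mean log2 ratio over the 50 genes was 0.45 in conv-dSVA_F, 0.42 in conv-dSVA_D and 0.41 in conv-dSVA_F&D. The median absolute difference between the 2 libraries of a line was 0.15, 0.14 and 0.17. The interquartile range of the genes ran from 0.30 to 0.61 in conv-dSVA_F replicate 1 and from 0.33 to 0.84 in conv-dSVA_D replicate 1. In conv-dSVA_F&D replicate 1 it ran from -0.21 to 0.43. Extremes reached 2.46 and -1.13 in conv-dSVA_F replicate 1, the first in Gprc5a and the second in Parp11.

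**Figure D1:**
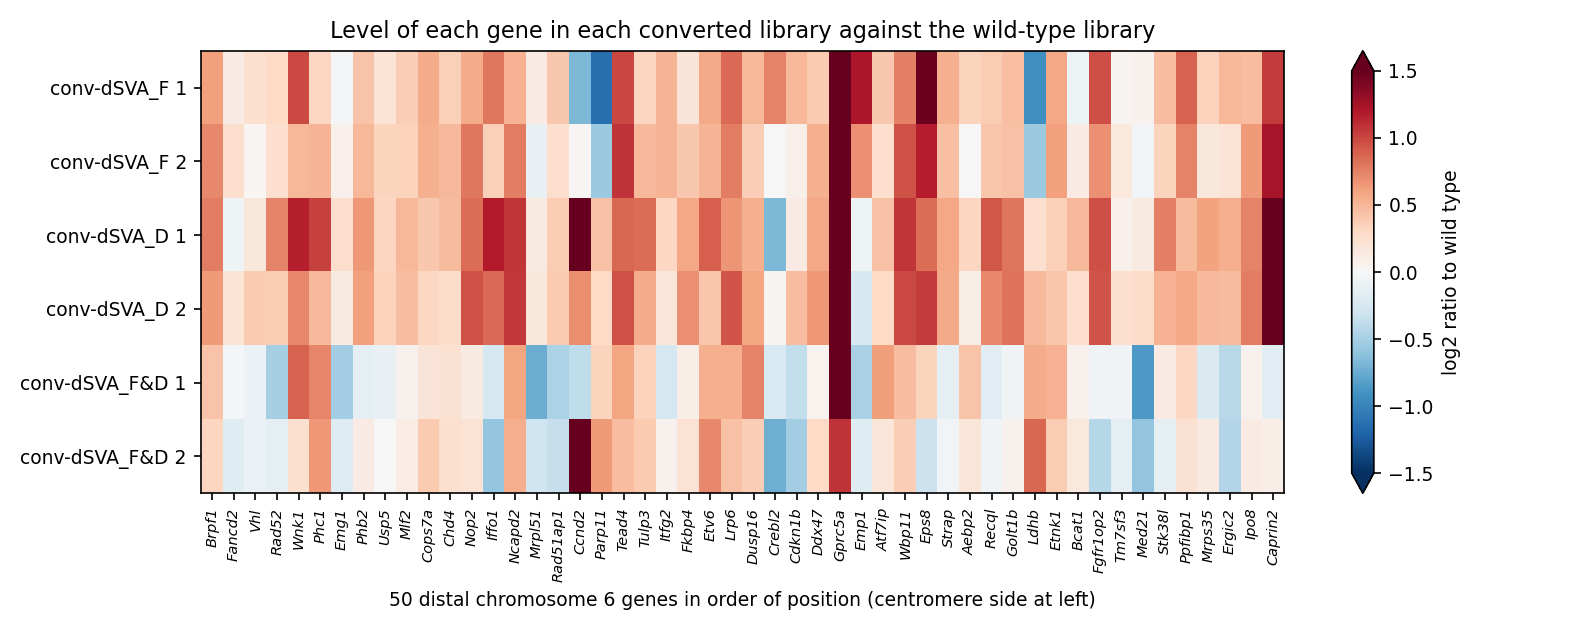
Each column is 1 of the 50 genes in order of position and each row 1 converted library, and the colour gives the log2 ratio to the wild-type library, with values past 1.5 in the end colours. The conv-dSVA_F and conv-dSVA_D rows are mostly red (45 to 49 genes above the wild type), the conv-dSVA_F&D rows are mixed (27 and 32).

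Between conv-dSVA_D and conv-dSVA_F&D, 45 of the 50 genes had a positive log2 difference and the median was 0.42, against 0.00 over all genes tested. By limma at an adjusted p under 0.05, 16 were higher in conv-dSVA_D, where the background was 1.21% of all genes tested, and 0 were lower (background 1.96%, or 3.16% in either direction). At an unadjusted p under 0.05, 30 passed in either direction. edgeR called 14 higher and 0 lower, and DESeq2 23 higher and 0 lower. No share over all genes is given here or below for unadjusted counts or for calls by other tools and settings. Those counts cannot be set against the limma background. Both conv-dSVA_D libraries lay above both conv-dSVA_F&D libraries for 36 genes (72%, background 24.8%) and below them for 1 (2%, background 25.1%). Between conv-dSVA_F and conv-dSVA_F&D, 41 genes were positive and the median was 0.35, against 0.01. There limma called 9 higher (18%, background 2.21%) and 2 lower (4%, background 1.71%, or 3.92% in either direction). Without overlap, 36 lay above (72%, background 25.5%) and 3 below (6%, background 23.8%). These 2 comparisons share the conv-dSVA_F&D libraries and chose the genes, so the counts stand as descriptions. With no low-value filter, or with no variance trend, limma called 0 of the 50 in either comparison. Without conv-dSVA_D replicate 1 or 2, 0 and 1 genes were called in the first comparison, with medians of 0.48 and 0.43 and with 28 at an unadjusted p under 0.05 each. In the second, 0 were called without conv-dSVA_F replicate 1 (median 0.37, 23 unadjusted), and 5 without conv-dSVA_F replicate 2 or either conv-dSVA_D library. Role by role, the differences from conv-dSVA_F&D are given as values, some with their standard error (SE), and with no test.

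The 8 genes of RNA processing, ribosome biogenesis and translation all had both conv-dSVA_D and both conv-dSVA_F libraries above both conv-dSVA_F&D libraries. Taking each line alone, this held for 24.8% of all genes tested in conv-dSVA_D and 25.5% in conv-dSVA_F, and for 72% of the 50 in each. Against conv-dSVA_F&D the median difference of the 8 was 0.64 in conv-dSVA_D and 0.47 in conv-dSVA_F, where it was 0.42 and 0.35 over the 50. Strap (chr6:137735078-137751932), a WD-repeat protein of the SMN complex that assembles splicing particles, had 5730.3 normalized counts in the wild type, 8291 and 7823 in conv-dSVA_F, 8602 and 8526 in conv-dSVA_D, with 5175 and 5558 in conv-dSVA_F&D. Those levels are 141%, 149% and 93.7% of the wild type as group means. Both pairs of single-deletion libraries stood above the other 3 libraries. The log2 difference of Strap from conv-dSVA_F&D was 0.68 ± 0.10 (SE) in conv-dSVA_D and 0.59 ± 0.10 in conv-dSVA_F.

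Caprin2, an RNA-binding protein that also acts in WNT signalling, had the largest difference of the 50 between conv-dSVA_D and conv-dSVA_F&D. Its normalized counts were 369 in the wild type, 767 and 872 in conv-dSVA_F, 1468 and 1202 in conv-dSVA_D, with 331 and 396 in conv-dSVA_F&D. The 3 groups did not overlap, with conv-dSVA_D highest and conv-dSVA_F&D around the wild type. The log2 difference from conv-dSVA_F&D was 1.87 ± 0.17 in conv-dSVA_D and 1.17 ± 0.17 in conv-dSVA_F. At 362% and 222% of the wild type, Caprin2 stood well past 1.5-fold.

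The rRNA methyltransferase gene Nop2 differed from conv-dSVA_F&D by 0.72 in conv-dSVA_D and 0.50 in conv-dSVA_F. Wbp11, a splicing factor, and Mrpl51, of the large mitochondrial ribosomal subunit, differed by 0.62 and 0.67 in conv-dSVA_D and by 0.44 and 0.53 in conv-dSVA_F. Emg1, which modifies 18S rRNA, had 5833 normalized counts in the wild type, 5721 and 6159 in conv-dSVA_F, 7016 and 6412 in conv-dSVA_D, with 4064 and 5092 in conv-dSVA_F&D. It stood at the wild-type level in conv-dSVA_F (102%) and below it in conv-dSVA_F&D (78.5%). Ddx47, an RNA helicase, and Mrps35, of the small mitochondrial subunit, had differences between 0.29 and 0.59 in the 2 lines.

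The 6 trafficking, adhesion and cytoskeleton genes lay without overlap above conv-dSVA_F&D in both single-deletion lines. Of the 50, 36 did so in each line, with backgrounds of 24.8% in conv-dSVA_D and 25.5% in conv-dSVA_F. No test set the group against the rest of the 50. Fgfr1op2, a partner of the STRIPAK kinase and phosphatase assembly, had 702 normalized counts in the wild type, 1368 and 1126 in conv-dSVA_F, 1374 and 1353 in conv-dSVA_D, with 676 and 519.6 in conv-dSVA_F&D. It differed from conv-dSVA_F&D by 1.20 ± 0.17 in conv-dSVA_D and 1.07 ± 0.17 in conv-dSVA_F. Ergic2, of the compartment between endoplasmic reticulum and Golgi, differed by 0.94 and 0.78.

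The nuclear lamin-like protein gene Iffo1 had 186 normalized counts in the wild type, 321 and 239 in conv-dSVA_F, 425 and 336 in conv-dSVA_D, with 155 and 124 in conv-dSVA_F&D. Its differences from conv-dSVA_F&D were 1.44 ± 0.25 in conv-dSVA_D and 0.99 ± 0.25 in conv-dSVA_F. Ipo8, a nuclear import receptor, had 2001 normalized counts in the wild type, 2763 and 3119.7 in conv-dSVA_F, 3347 and 3417 in conv-dSVA_D, with 2090.3 and 2183 in conv-dSVA_F&D. Its difference was 0.66 in conv-dSVA_D. Golt1b, a Golgi transport protein, had 0.80 there, and Ppfibp1, a liprin scaffold, had 0.26 with 0.55 in conv-dSVA_F.

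The 6 genes placed in the group of DNA repair and chromosome structure differed among themselves. Recql, a RecQ helicase, had 530.5 normalized counts in the wild type, 692 and 711 in conv-dSVA_F, 1014 and 877 in conv-dSVA_D, with 473 and 509.9 in conv-dSVA_F&D. Conv-dSVA_D was highest and conv-dSVA_F in between, with no overlap of the 3 groups. It differed from conv-dSVA_F&D by 0.94 ± 0.15 in conv-dSVA_D, where Rad52 and Rad51ap1, both of homologous recombination, differed by 0.88 and 0.80. Rad51ap1 differed by 0.75 in conv-dSVA_F.

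Ncapd2, a condensin I subunit that compacts mitotic chromosomes, had 6122 normalized counts in the wild type, 8765 and 10452 in conv-dSVA_F, 12916 and 12782 in conv-dSVA_D, with 9247 and 8939 in conv-dSVA_F&D. Here conv-dSVA_F&D also stood at 149% of the wild type, and conv-dSVA_F overlapped it. Fancd2, of the Fanconi anaemia pathway, stayed between 92.9% and 114% of the wild type as group means.

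Parp11, a mono-ADP-ribosyltransferase placed in this group by the role list only, ran against the rest in conv-dSVA_F. It had 189 normalized counts in the wild type, 85.9 and 128 in conv-dSVA_F, 256 and 233 in conv-dSVA_D, with 239 and 294 in conv-dSVA_F&D. Conv-dSVA_F was lowest, without overlap. Its log2 difference from conv-dSVA_F&D was -1.33 there.

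Most chromatin and transcription genes were raised over the wild type in conv-dSVA_F&D as well. The 10 had a median log2 ratio to the wild type of 0.41 in conv-dSVA_F, 0.51 in conv-dSVA_D and 0.37 in conv-dSVA_F&D. Against conv-dSVA_F&D the median difference was 0.15 in conv-dSVA_D and 0.11 in conv-dSVA_F. The widest in conv-dSVA_D was that of Med21, a Mediator subunit, with 1540.1 normalized counts in the wild type, 1613 and 1494 in conv-dSVA_F, 1687 and 1857 in conv-dSVA_D, with 848 and 1021 in conv-dSVA_F&D. Med21 was at the wild-type level in conv-dSVA_F and low in conv-dSVA_F&D, at 60.7% of the wild type. It differed from conv-dSVA_F&D by 0.93 and 0.74.

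Chd4, the ATPase of the NuRD remodelling complex, had 8462 normalized counts in the wild type, 10816 and 11849 in conv-dSVA_F, 11764 and 10251 in conv-dSVA_D, with 9949 and 9967 in conv-dSVA_F&D. Its differences from conv-dSVA_F&D were 0.14 ± 0.11 and 0.19 ± 0.11. Aebp2, an accessory subunit of Polycomb repressive complex 2, had 2780.0 in the wild type, 3516 and 2793 in conv-dSVA_F, 3472 and 2967 in conv-dSVA_D, with 3735 and 3148 in conv-dSVA_F&D. All 3 lines overlapped for Aebp2. Phc1, of Polycomb repressive complex 1, stood higher in conv-dSVA_F&D (4811 and 4541) than in conv-dSVA_F (3581 and 4137), with 5875 and 4059 in conv-dSVA_D and 2895 in the wild type.

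Brpf1, a scaffold of KAT6 acetyltransferases, and the Hippo pathway factor Tead4 stood above the wild type in all 6 converted libraries. Tead4 reached 206% of the wild type in conv-dSVA_F, 187% in conv-dSVA_D and 144% in conv-dSVA_F&D. Etv6, an ETS repressor, Tulp3, known for ciliary transport, and Atf7ip, the partner of the methyltransferase SETDB1, were above it in all 6 as well. Crebl2, a bZIP factor with few reads, ranged from 85 to 237 and had no clear order.

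Signalling genes and receptors held some of the widest differences. The 7 had a median ratio to the wild type of 0.81 in conv-dSVA_F, 0.80 in conv-dSVA_D and 0.50 in conv-dSVA_F&D. Eps8, an actin regulator downstream of receptor tyrosine kinases, had 458 normalized counts in the wild type, 1277 and 1039 in conv-dSVA_F, 823 and 946 in conv-dSVA_D, with 576 and 368 in conv-dSVA_F&D. The order was conv-dSVA_F, then conv-dSVA_D, then conv-dSVA_F&D, without overlap. Eps8 differed from conv-dSVA_F&D by 1.32 ± 0.22 in conv-dSVA_F and 0.94 ± 0.22 in conv-dSVA_D.

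Emp1, an epithelial membrane protein, had 319 normalized counts in the wild type, 741 and 514 in conv-dSVA_F, 303 and 269 in conv-dSVA_D, with 228 and 280.0 in conv-dSVA_F&D. It differed from conv-dSVA_F&D by 1.29 ± 0.23 in conv-dSVA_F, where both libraries were above the other 5. Gprc5a, an orphan receptor induced by retinoic acid, stood above the wild type (174) in all 6 converted libraries. It had 961 and 503 in conv-dSVA_F, 639.5 and 758 in conv-dSVA_D, with 605 and 368 in conv-dSVA_F&D.

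Wnk1, a kinase of ion transport, had 4711 normalized counts in the wild type, 9339 and 6651 in conv-dSVA_F, 10563 and 7764 in conv-dSVA_D, with 8733 and 5568 in conv-dSVA_F&D. The gap between the 2 libraries of a line was wide, and the lines overlapped. Lrp6, a WNT co-receptor, and the phosphatase gene Dusp16 were above the wild type in all 6 libraries, with differences from conv-dSVA_F&D between -0.13 and 0.32. Stk38l, a kinase of the NDR family, had 0.65 in conv-dSVA_D and 0.41 in conv-dSVA_F.

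Among 5 genes of protein turnover, folding and mitochondrial scaffold, Phb2, a prohibitin of the inner mitochondrial membrane, had 8473 normalized counts in the wild type, 11422 and 11958 in conv-dSVA_F, 13253 and 12990.4 in conv-dSVA_D, with 7651 and 9253 in conv-dSVA_F&D. Phb2 differed from conv-dSVA_F&D by 0.64 ± 0.12 in conv-dSVA_D and 0.47 ± 0.12 in conv-dSVA_F. Fkbp4, an HSP90 co-chaperone, had 15560.2 in the wild type, 17838 and 20632 in conv-dSVA_F, 23307 and 25012 in conv-dSVA_D, with 16669 and 18118 in conv-dSVA_F&D. Conv-dSVA_D was highest, and conv-dSVA_F overlapped conv-dSVA_F&D. Usp5, a deubiquitinase, Vhl, which targets HIF for degradation, and Cops7a, of the COP9 signalosome, had differences between 0.07 and 0.39.

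The 3 metabolic genes differed in pattern. Ldhb, which starts at base 142490249 of GRCm38 chromosome 6 in GENCODE coordinates, encodes the lactate dehydrogenase subunit of heart type. It had 1335 normalized counts in the wild type, 707 and 905 in conv-dSVA_F, 1593 and 1869.5 in conv-dSVA_D, with 1968 and 2421 in conv-dSVA_F&D. Conv-dSVA_F was below the wild type and the other 2 lines above it, without overlap. The log2 difference of Ldhb from conv-dSVA_F&D was -1.45 in conv-dSVA_F. Bcat1, the cytosolic branched-chain aminotransferase, had 10430.2 in the wild type, 9888 and 11354 in conv-dSVA_F, 14579 and 12454 in conv-dSVA_D, with 10867 and 11651 in conv-dSVA_F&D. Etnk1, an ethanolamine kinase, had 4310.3, then 6445 and 6594, then 5529 and 5752, then 6164 and 5607 in the same order, so that all 6 converted libraries were above the wild type.

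Of the 2 cell cycle genes, Cdkn1b, which encodes the CDK inhibitor p27, had 957 normalized counts in the wild type, 1355 and 1007 in conv-dSVA_F, 1045 and 1323 in conv-dSVA_D, with 739.8 and 669 in conv-dSVA_F&D. Its differences from conv-dSVA_F&D were 0.74 ± 0.18 and 0.73 ± 0.18. Ccnd2, a D-type cyclin, ranged from 29.8 to 176 with wide gaps between replicates. Mlf2, Itfg2 and Tm7sf3, placed in no role group, lay above conv-dSVA_F&D without overlap in both lines, with differences between 0.20 and 0.61. Backgrounds for such an order were 24.8% in conv-dSVA_D and 25.5% in conv-dSVA_F. Mlf2 had 5060.1 normalized counts in the wild type, 6514 and 6439.6 in conv-dSVA_F, 7146 and 6985 in conv-dSVA_D, with 5307 and 5476 in conv-dSVA_F&D.

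**Figure D2:**
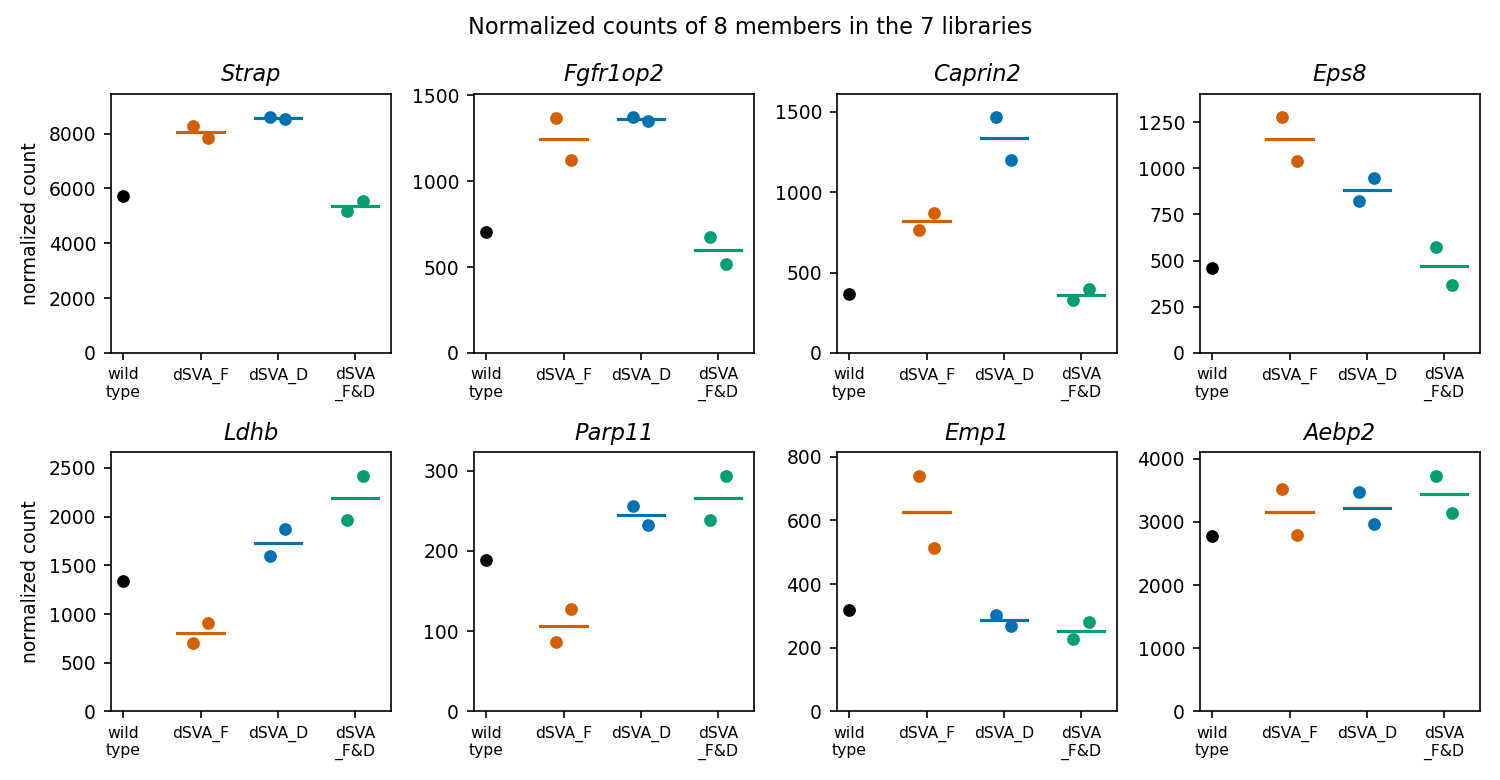
Normalized counts of 8 of the genes in each library, with points for libraries and bars for means of 2. Strap, Fgfr1op2, Caprin2 and Eps8 are higher in conv-dSVA_F and conv-dSVA_D than in conv-dSVA_F&D, Ldhb and Parp11 are lowest in conv-dSVA_F, Emp1 is highest there, and Aebp2 overlaps across the lines.

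The back-to-back pairs gave both partners' values side by side. Emg1 and Phb2 differed from conv-dSVA_F&D by 0.56 and 0.64 in conv-dSVA_D and by 0.38 and 0.47 in conv-dSVA_F. Recql and Golt1b differed by 0.94 and 0.80, and by 0.51 and 0.44. Ncapd2 and Mrpl51 differed by 0.50 and 0.67 in conv-dSVA_D but by 0.07 and 0.53 in conv-dSVA_F, the pair with the largest gap of the 3 in that line. Against the wild type, Ncapd2 stood at 149% in conv-dSVA_F&D and Mrpl51 at 70.6%. In all, 8 of the 50 genes overlap a gene with a mean of at least 50 on the opposite strand: Emg1, Iffo1 (with Gapdh), Wbp11, Recql, Fgfr1op2, Ergic2, and Tm7sf3 and Med21 with each other. The strand setting of the counting was not given in the sources used here. Reads from the bases that these genes share with their partners cannot then be told apart.

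The comparison of conv-dSVA_F with conv-dSVA_D draws on the same library values as those that chose the genes. Its calls and p-values for the 50 therefore stand as descriptions too. In it, 39 of the 50 had a negative difference and the median was -0.14, against -0.01 over all genes tested. By limma 1 gene passed, Ldhb, lower in conv-dSVA_F (background 0.262% lower, 1.35% in either direction). No gene passed as higher (background 1.08%), while 10 had an unadjusted p under 0.05 in either direction. edgeR called 1 higher and 1 lower, and DESeq2 1 higher and 4 lower. Both conv-dSVA_F libraries lay below both conv-dSVA_D libraries for 25 of the 50 genes (50%, background 25.6%) and above them for 7 (14%, background 26.4%). The RNA processing group was below in all 8 of its genes, by -0.09 to -0.70, with none past the test.

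The Ldhb difference was -1.11 ± 0.17 (limma, adjusted p = 0.0193). The Ldhb difference kept its sign but lost the call without conv-dSVA_F replicate 1 (-0.93), conv-dSVA_D replicate 1 (-1.22) or conv-dSVA_D replicate 2 (-0.99). Caprin2 differed by -0.70 ± 0.17 and Parp11 by -1.21 ± 0.27, neither past limma's threshold. Emp1 was on the other side, at 1.11 ± 0.23, and was not past it either. Each was lower, or for Emp1 higher, in both conv-dSVA_F libraries than in both conv-dSVA_D libraries. Strap, at -0.09 ± 0.10, and Fgfr1op2, at -0.14 ± 0.17, were close in the 2 lines.

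Neighbouring genes had medians close to those of the 50. The 141 other genes of the same stretch with a mean of at least 50 had median ratios to the wild type of 0.41 and 0.40 in conv-dSVA_F, 0.48 and 0.53 in conv-dSVA_D, with 0.02 and -0.01 in conv-dSVA_F&D. Against conv-dSVA_F&D, limma called 39 higher and 1 lower in conv-dSVA_D (median 0.53), where the background was 1.21% and 1.96%. It called 22 higher and 0 lower in conv-dSVA_F (median 0.36, background 2.21% and 1.71%, 73 unadjusted in either direction). For the latter edgeR called 16 higher and 1 lower, and DESeq2 37 and 2. Without either conv-dSVA_D library 0 were called in the first of these (69 and 66 unadjusted), and 23 to 26 without a conv-dSVA_F library or conv-dSVA_F&D replicate 2. In the second, 0 were called without conv-dSVA_F replicate 1 (43 unadjusted), 4 without conv-dSVA_F replicate 2, 5 without either conv-dSVA_D library and 14 without conv-dSVA_F&D replicate 2. Nanog, a core pluripotency factor, had 20486 normalized counts in the wild type, 22731 and 20492 in conv-dSVA_F, 28144 and 27769 in conv-dSVA_D, with 19514 and 16246 in conv-dSVA_F&D. Nanog differed from conv-dSVA_F&D by 0.65 ± 0.13 in conv-dSVA_D and 0.28 ± 0.13 in conv-dSVA_F. The tetraspanin gene Cd9 differed from conv-dSVA_F&D by 0.64 in conv-dSVA_D and 0.54 in conv-dSVA_F. Another 56 genes of the stretch with means of 10 to 50 had medians of 0.37 and 0.33.

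The rest of chromosome 6 separated the 2 lines. Over 316 genes before 100 Mb, the median ratio to the wild type was 0.42 and 0.37 in conv-dSVA_F but -0.09 and -0.10 in conv-dSVA_D, with -0.02 and -0.03 in conv-dSVA_F&D. Between conv-dSVA_F and conv-dSVA_D, limma called 36 of the 316, each higher in conv-dSVA_F (background 1.08%), and the median was 0.46. Without conv-dSVA_F replicate 1 or conv-dSVA_D replicate 2 it called 0 (136 and 146 unadjusted), without conv-dSVA_D replicate 1 it called 1, and without conv-dSVA_F replicate 2 it called 6. Without a conv-dSVA_F&D library it called 79 and 80. In these settings the median lay between 0.46 and 0.48. Between conv-dSVA_D and conv-dSVA_F&D it called 4 higher and 6 lower, with a median of -0.04. Over the 50 distal genes the conv-dSVA_F minus conv-dSVA_D median was -0.14. In windows of 10 Mb with at least 20 genes, the conv-dSVA_F medians ran from 0.22 to 0.55 in the 7 windows before 100 Mb and from 0.36 to 0.60 in the 4 windows from 110 Mb on. Those of conv-dSVA_D ran from -0.24 to 0.08 before and from 0.46 to 0.54 after, and those of conv-dSVA_F&D from -0.09 to 0.12 and from -0.09 to 0.10.

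The conv-dSVA_D level changed ahead of the first of the 50 genes. In windows of 5 Mb its medians were -0.15 and 0.09 at 95 to 100 Mb (10 genes), 0.18 and -0.08 at 100 to 105 Mb (4 genes), 0.59 and 0.65 at 105 to 110 Mb (8 genes), and 0.39 and 0.44 at 110 to 115 Mb (28 genes). The middle windows are thin, with under 20 genes each, so the place of the step is known to within these windows at best. The 18 genes from 100 Mb to Brpf1 had a median difference from conv-dSVA_F&D of 0.48 in conv-dSVA_D and 0.42 in conv-dSVA_F.

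**Figure D3:**
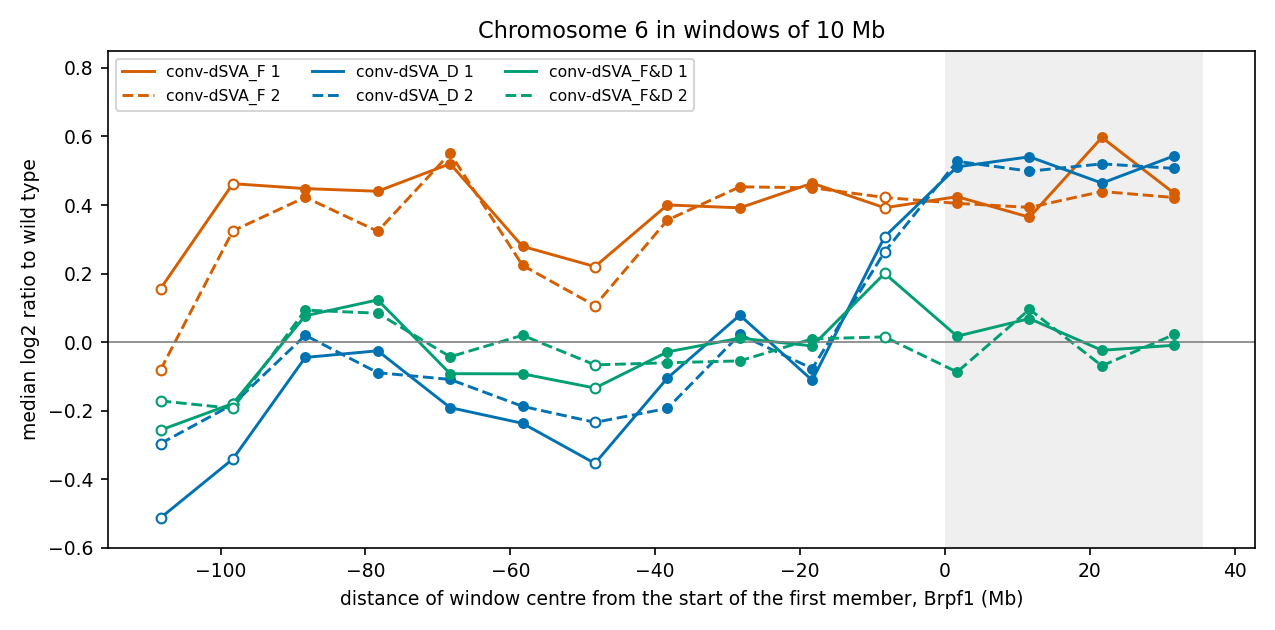
Median log2 ratio to the wild type in 10 Mb windows of chromosome 6 against distance from the start of Brpf1 (Mb), 1 line per converted library, with open points for windows of under 20 genes and grey for the span of the 50 genes. The conv-dSVA_F lines are above 0.20 in all filled windows, the conv-dSVA_D lines run from -0.24 to 0.08 in filled windows before 100 Mb and from 0.46 to 0.54 in the grey span, and the conv-dSVA_F&D lines stay near 0.

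**Figure D4:**
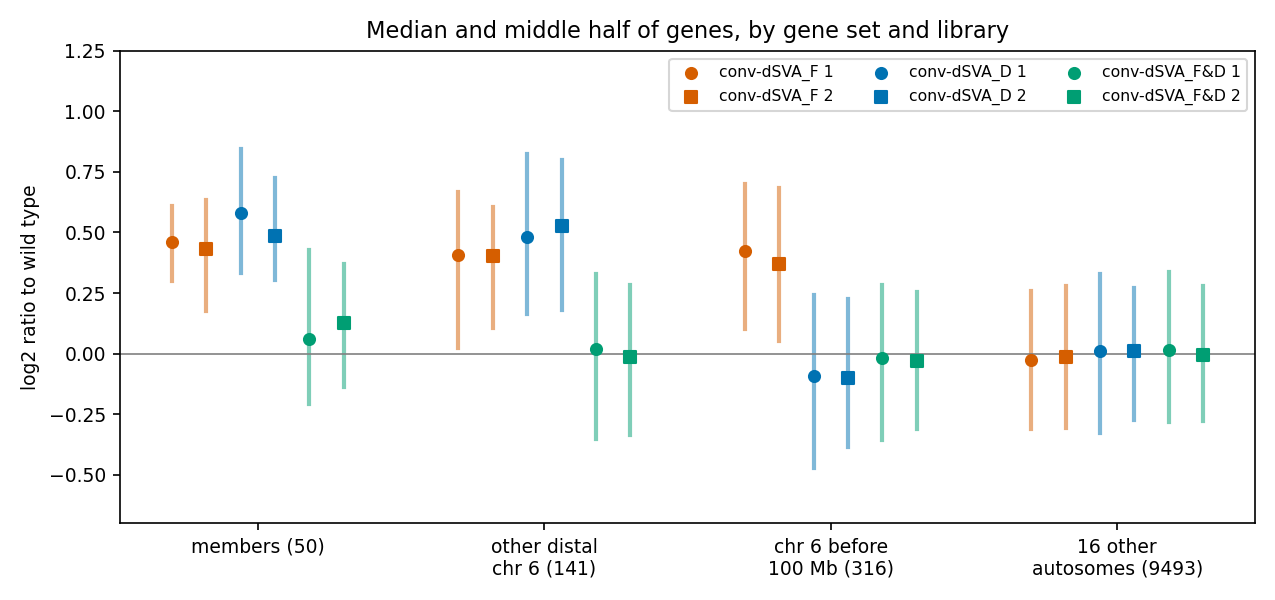
Median (points) and interquartile range (bars) of the log2 ratio to the wild type in each converted library for the 50 genes, 141 other distal genes, 316 genes of chromosome 6 before 100 Mb and 9493 genes of 16 other autosomes. The distal sets are raised in conv-dSVA_F and conv-dSVA_D, the set before 100 Mb in conv-dSVA_F, and the other autosomes lie between -0.03 and 0.01.

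Many of the 50 genes work in complexes or pathways whose other parts are encoded elsewhere. In 21 lists, 115 such partners on chromosomes other than 6, 8, 18, X and Y were tested. Their median difference from conv-dSVA_F&D was 0.08 in conv-dSVA_D and 0.03 in conv-dSVA_F. The difference was positive for 76 partners in conv-dSVA_D and 65 in conv-dSVA_F, and for 50.3% and 51.1% of all genes tested. In conv-dSVA_D, limma called 5 of the 115, near the background of 3.16% in either direction. In conv-dSVA_F it called 3, where the background was 3.92%. Both backgrounds include chromosomes 6, 8 and 18, which the partners leave out. On the 16 other autosomes, genes with a mean of at least 50 were called higher in 0.97% and lower in 2.5% for conv-dSVA_D. For conv-dSVA_F these shares were 0.57% and 2.3%. Neither count is a result about the partners as a set. In conv-dSVA_D, 1 was higher (Brca2, a recombination mediator) and 4 lower. The lower ones were Wwtr1 (the coactivator TAZ), Mta3 (NuRD), Ccn1 (a YAP target) and Jarid2 (Polycomb repressive complex 2). In conv-dSVA_F, Brca2 was higher, and Wwtr1 and the WNT co-receptor gene Lrp5 lower.

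Brca2 had 3865 normalized counts in the wild type, 4910.5 and 4973 in conv-dSVA_F, 6018 and 4912 in conv-dSVA_D, with 3638 and 3102 in conv-dSVA_F&D. The differences were 0.69 ± 0.13 (limma, adjusted p = 0.0266) and 0.56 ± 0.13 (limma, adjusted p = 0.0481), higher in 2 of 2 libraries each. Wwtr1 had 1727, then 1227 and 1312, then 1121 and 1074, then 1828 and 1864 in the same order. It differed by -0.75 ± 0.12 in conv-dSVA_D (limma, adjusted p = 0.0161) and -0.54 ± 0.12 in conv-dSVA_F (limma, adjusted p = 0.0406). Leaving out either conv-dSVA_D library left 0 partners called in conv-dSVA_D, with 16 and 15 at an unadjusted p under 0.05. Leaving out conv-dSVA_F replicate 1 or either conv-dSVA_D library left 0 in conv-dSVA_F (15, 28 and 28 unadjusted).

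List by list, partner medians were small in most cases beside the medians over all 50 genes (0.42 in conv-dSVA_D, 0.35 in conv-dSVA_F). That does not set a list against its own member. For Strap, the 7 other SMN complex genes had medians of 0.22 in conv-dSVA_D and 0.10 in conv-dSVA_F, with 0 called. The 7 Mediator partners of Med21 had 0.17 and 0.14, the 9 ribosome biogenesis partners of Emg1, Nop2 and Ddx47 0.13 and 0.11, and the 6 recombination partners of Rad52 and Rad51ap1 0.05 and -0.06. None of these was called by limma. The 4 condensin I partners of Ncapd2 had 0.18 and 0.20, the 8 NuRD partners of Chd4 -0.04 and -0.18, and the 8 COP9 signalosome partners of Cops7a 0.19 and 0.08. Cops7a itself had 0.07 and 0.25. The 9 partners of Phc1 in Polycomb repressive complex 1 had 0.28 and 0.15, and Phc1 itself 0.06 and -0.28. Ldha, the other main lactate dehydrogenase subunit, differed from conv-dSVA_F&D by -0.03 ± 0.19 in conv-dSVA_D and -0.67 ± 0.19 in conv-dSVA_F (limma, adjusted p = 0.942 and 0.0898). The 4 YAP targets and coactivators set beside Tead4 had the lowest list median in conv-dSVA_D, -0.60, with Wwtr1 and Ccn1 past the test.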

How the data were processed

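RNA-seq of mouse embryonic stem cells was deposited by the authors as a signal of normalized counts: gene counts divided by 1 size factor per library. The submitters' processing notes list the build mm10 and, as tools, DESeq2, featureCounts 1.6.3, STAR 2.7.3, Trimmomatic 0.36, Picard 2.18.20 and deepTools 3.1.0. What each did, the annotation and the strand setting remained not given in the sources used here. Reads were rebuilt from the step size of each column, and 100% of values fell within 0.1 read of a whole number. Of 54456 genes, 50618 matched a GENCODE M21 name, which gave positions. All value columns were mapped to a sample (0 unmapped).

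Groups were compared by limma 3.58.1, variance trend on (R 4.3.3), on log2(normalized count + 1) for 15240 genes with a mean of at least 10. The fit had 1 mean per group for 4 groups, two-sided tests, and Benjamini-Hochberg adjustment with a threshold of 0.05. The 1 wild-type library is taken to vary as the other groups do. Log2 differences and ratios are on that scale, which understates changes of low genes. Alternatives were edgeR 4.0.16 and DESeq2 1.42.0 on recovered reads, other added counts, no filter, no trend, rescaling and leaving out libraries. The fit was tested on simulated data. Figures used Python 3.11.15 and matplotlib 3.10.9.

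The 50 genes, the role and partner lists, the rules and the tests were chosen with earlier results of these data known. Genes described in detail were, per role group, the 1 with the highest mean normalized count. To these were added the 4 highest and 4 lowest differences of conv-dSVA_D and of conv-dSVA_F from conv-dSVA_F&D, members called between conv-dSVA_F and conv-dSVA_D, and up to 6 called partners per comparison. Values of other genes were chosen after they were seen.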

Additional observations from a re-analysis of the deposited data

Results flagged for a closer look

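A difference between conv-dSVA_F and conv-dSVA_D that passed limma's test over all genes marked 6 genes. They were 1 of the 50, 4 of the 141 other distal genes and 1 of the 115 partners. The background was 1.35% of all genes tested in either direction. By direction the background was 1.08% higher in conv-dSVA_F and 0.262% lower. Of the 50, 0% were higher and 2% lower, and of the other distal genes 0.71% were higher and 2.1% lower. The counts are small, no test set them against the background, and they are not read as a result about the sets. Among the 50 the marked gene was Ldhb (-1.11 on the log2 scale, conv-dSVA_F minus conv-dSVA_D). Among the other distal chromosome 6 genes were A2m (-2.35, limma adjusted p = 0.0477), St8sia1 (2.50, limma adjusted p = 0.0310), Tpi1 (-1.20, limma adjusted p = 0.0310) and Zfp422 (-1.32, limma adjusted p = 0.0210). Among partners it was Ccn1 (1.20, limma adjusted p = 0.0234). A2m, which encodes a protease inhibitor, had 4631 normalized counts in the wild type, 1468 and 3587 in conv-dSVA_F, 11122 and 12225 in conv-dSVA_D, with 9270.4 and 3093 in conv-dSVA_F&D. St8sia1, a sialyltransferase gene, had 20.7, then 238 and 139, then 37.5 and 26.1, then 84.2 and 57.1 in the same order. Tpi1, of glycolysis, had 19068, then 9125 and 15308, then 24186 and 30624.5, then 17267 and 16392. Without conv-dSVA_F replicate 1 none of the 6 passed, with values of -0.93 for Ldhb, -1.70 for A2m, 2.12 for St8sia1, -0.83 for Tpi1, -1.29 for Zfp422 and 0.99 for Ccn1. None passed without either conv-dSVA_D library.

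Parp11 (-1.21) and Emp1 (1.11) were marked because both libraries of one line lay above the wild type and both of the other below it. The sides of the wild type were not tested. The difference between the lines itself missed limma's threshold in both.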

How the results depend on the processing

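No paired analysis was possible because the labels give no replicate numbers and the columns carry none. Counts of called genes moved more with the settings than the medians did. With no low-value filter, or with no variance trend, limma called 0 genes in every one of the 9 counts (the 50 genes, the other distal genes and the partners, in 3 comparisons), although 7 to 30 of the 50 genes, 21 to 78 other distal genes and 6 to 27 partners had an unadjusted p under 0.05. The cause was not tested. For the 316 genes before 100 Mb between conv-dSVA_F and conv-dSVA_D (36 called), settings applied after seeing the data gave 0 with no filter or no trend (166 and 150 unadjusted), 24 with 0.1 added, 53 with rescaling, 94 with DESeq2, and 0 to 80 leaving out 1 library. DESeq2 on recovered reads called 20 of the 50 between conv-dSVA_F and conv-dSVA_F&D (11 by the test used here) and 5 between conv-dSVA_F and conv-dSVA_D (1), 39 (22) and 10 (4) of the other distal genes, and 9 (5), 9 (3) and 6 (1) partners in the 3 comparisons. Between conv-dSVA_F and conv-dSVA_D, 2 of the 50 were called with 5 added before log2, with libraries rescaled on genes outside chromosomes 6, 8, 18, X and Y, with edgeR and without the wild-type library. There, rescaling gave 2 partners, and adding 0.1 left 1 partner called between conv-dSVA_F and conv-dSVA_F&D.

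Leaving out 1 converted library at a time, with the lone sample left assumed to vary like the other groups, gave these ranges of calls for conv-dSVA_D minus conv-dSVA_F&D, conv-dSVA_F minus conv-dSVA_F&D and conv-dSVA_F minus conv-dSVA_D. They were 0 to 15, 0 to 11 and 0 to 4 of the 50, 0 to 38, 0 to 20 and 0 to 10 other distal genes, and 0 to 6, 0 to 4 and 0 to 6 partners. The median difference of the 50 between conv-dSVA_D and conv-dSVA_F&D ranged from 0.41 to 0.48. It was 0.53 over the other distal genes and 0.48 as a mean. The median ratio to the wild type in conv-dSVA_F replicate 1 was 0.48 after rescaling, 0.41 over the other distal genes and 0.36 against the conv-dSVA_F&D mean. In replicate 2 the last 2 of these were 0.40 and 0.36. In conv-dSVA_D replicate 1 they were 0.48 and 0.43, and in replicate 2 the mean over the 50 was 0.57. Over the other distal genes, conv-dSVA_F&D replicate 2 stood at -0.015. No difference that passed a test changed sign in any setting run. Differences that passed none did so without 1 library in Ncapd2, Bcat1, Wnk1, Parp11, Aebp2, Etnk1, Ccnd2 and Phc1. The widest was Ccnd2, where conv-dSVA_D minus conv-dSVA_F&D went from 0.67 to -0.31 on the log2 scale without conv-dSVA_F&D replicate 1, and conv-dSVA_F minus conv-dSVA_F&D from -0.93 to 0.06 without replicate 2. For single genes with a test, 135 values kept their call, 13 gained it and 90 lost it. With 2 libraries per line and 1 wild-type library, ratios to the wild type have no error of their own. Counting error is relatively largest in Ccnd2 and Crebl2, which have the fewest counts of the 50.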
